A study of Mus musculus with 24 samples.

Results

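Transcripts of 9 interleukin-1 family genes were measured in 24 whole kidneys of male mice, 6 from *mgb+/+* controls and 18 from *mgb-/-* animals. The genes were the agonist cytokines *Il1a*, *Il1b*, *Il1f6* (also called *Il36a*), *Il18* and *Il33*, the receptor antagonist *Il1rn*, and the receptors *Il1r1*, *Il1r2* and *Il1rl1*. They were chosen by name, with earlier results of these data known. Each was taken from the array probes whose RefSeq accession belongs to it, so that 9 of 9 had a probe and 7 entered the test among 27971 genes. The *mgb-/-* (megabladder) line carries a germline mutation that leaves the bladder without working muscle, so urine backs up into the kidneys from before birth. Mice were age-matched young animals, and no group received a treatment. By ultrasound 7 *mgb-/-* kidneys were graded as mild, 5 as moderate and 6 as severe hydronephrosis, the grade rising as the parenchyma is lost. Whether some kidneys came in pairs from 1 animal is not given in the sources used here, and the p-values measure the spread between these kidneys.

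Interleukin-1 cytokines are early signals of tissue damage. IL-1α and IL-1β bind the receptor encoded by *Il1r1*, which recruits an accessory chain and, through MyD88 and IRAK kinases, activates NF-κB, whereas the antagonist encoded by *Il1rn* and the decoy receptor encoded by *Il1r2* hold that signal back. IL-18 and IL-33 have receptors of their own, IL-36α acts mainly in epithelia, and IL-1β and IL-18 are cut to their active forms by caspase-1 in the inflammasome.

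Each kidney was hybridized to its own single-colour array. A level below is the log2 intensity of a probe minus the 75th percentile of its array, so 0 is that percentile and a difference of 1 is a doubling. Levels of single genes come from different probes and were not set against each other. A summed level of a marker list adds the linear intensities of its probes, so its brightest probe weighs most. A probe is called above background where the scanner software marked it as well above background on that array. Between 56.6% and 71.5% of probes were above background per array, the lowest share being on severe replicate 4. All 13 renal tubule and podocyte markers were above background in every kidney. A gene passed at an adjusted p under 0.05 in limma (Benjamini-Hochberg over all 27971 genes). Where a group had no kidney above background, a fold is given as a lower bound. The adjusted p beside such a bound is from limma on the measured values, floor readings included, and does not test the bound. Every comparison with control uses the same 6 control kidneys, so the values of the grades stand side by side and are not independent.

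In *mgb-/-* against control kidneys, *Il1b*, *Il1r1* and *Il1r2* were higher and passed, and 0 members were lower and passed (1, *Il18*, at an unadjusted p under 0.05). That is 3 of 7 members tested, where 13.3% of all genes passed. In severe against control kidneys *Il1b*, *Il1r1* and *Il1r2* passed again, with 16.1% of all genes passing. In mild against control kidneys the 1 member that passed was *Il18*, which was lower, against 6.02% of all genes. No member passed in moderate against control kidneys, where 1.2% of all genes did and where 4 members had an unadjusted p under 0.05. The median log2 change over the 7 tested members was 0.69 in *mgb-/-* kidneys and 1.05 in severe kidneys, while the median over all genes was 0.01 and 0.02. *Il1r2* and *Il1f6* entered the test mainly through the *mgb-/-* kidneys in which they were high, and both the count and these medians have to be read with that. Without these 2 genes the medians were 0.60 and 0.66.

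**Figure D1:**
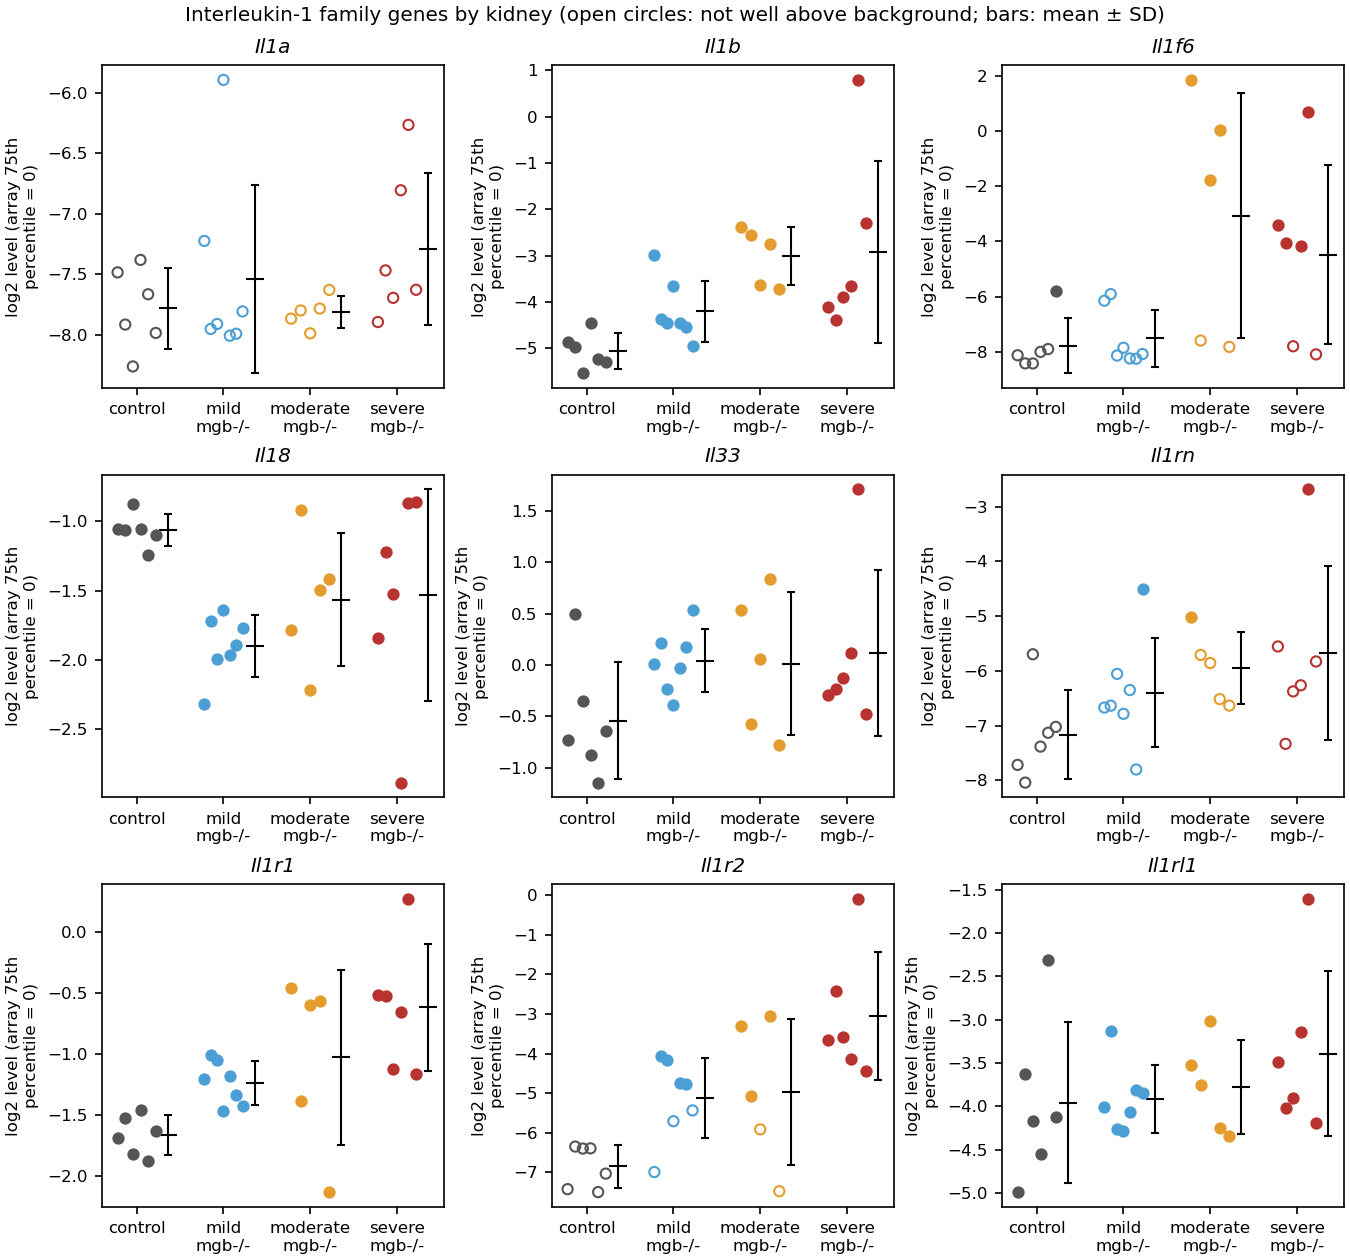
Levels of the 9 genes in each kidney, as log2 intensity with the array's 75th percentile at 0, by group. Filled circles are kidneys in which the probe was well above background, open circles those in which it was not, and the bars give mean and SD. The group means of *Il1b*, *Il1r1* and *Il1r2* are lowest in control kidneys, *Il18* lies lower in all 7 mild kidneys, and 1 severe kidney stands at the top of most panels.

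**Figure D2:**
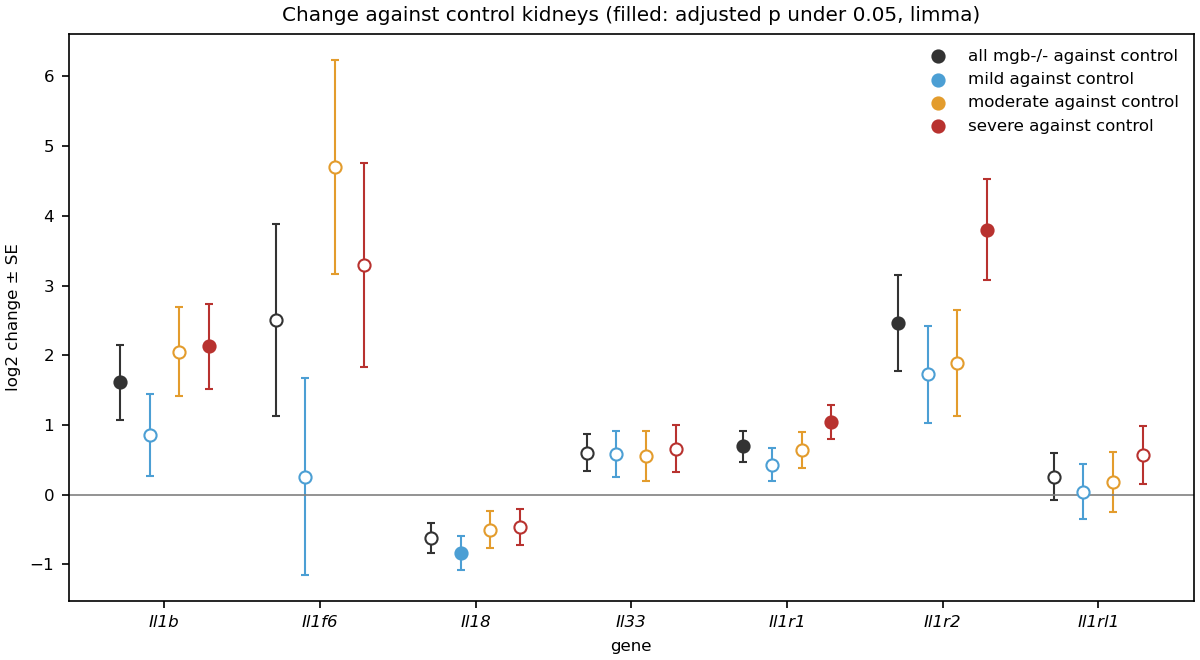
Log2 change with SE (limma) of the 7 tested genes in all *mgb-/-* kidneys and in each grade against the 6 controls. Filled circles have an adjusted p under 0.05: *Il1b*, *Il1r1* and *Il1r2* in all *mgb-/-* and in severe kidneys, and *Il18* in mild kidneys. The control level of *Il1r2* was not above background in any kidney, and that of *Il1f6* in 1, so their changes rest on readings near the floor of the probe.

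*Il1b*, which encodes the secreted agonist made chiefly by myeloid cells, was above background in all 24 kidneys. In controls its level ran from -5.53 to -4.44 with a median of -5.10. Mild kidneys ran from -4.94 to -2.98 with a median of -4.45, so the lower mild kidneys lay inside the control range. The 5 moderate kidneys were at -2.38, -2.56, -3.62, -2.74 and -3.72, and every one lay above every control. Severe kidneys ran from -4.39 to 0.79 with a median of -3.78, again without overlap with controls. The log2 change was 1.61 (SE 0.54, adjusted p = 0.0473) over all *mgb-/-* kidneys, with 18 of 18 above the control mean. It was 2.13 in severe kidneys (SE 0.61, adjusted p = 0.0237), 2.05 in moderate kidneys (SE 0.64, adjusted p = 0.0988) and 0.86 in mild kidneys (SE 0.59, adjusted p = 0.441). Within the 3 array slides the *mgb-/-* change was 1.14, 2.06 and 1.63, and with slide as a block the adjusted p was 0.054. The call over all *mgb-/-* kidneys was lost in 17 of 24 fits that each left out 1 kidney (adjusted p from 0.0116 to 0.113) and in 7 of 13 other settings. The severe call was lost in 1 of 24 such fits, without control replicate 3 (adjusted p = 0.0531), with the authors' normalized table (change 1.25, adjusted p = 0.0695) and in a fit of these 2 groups alone (adjusted p = 0.0994). The study on these kidneys, with its own normalization and thresholds, stated that interleukin-1 beta was not among the inflammatory genes it identified.

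Severe replicate 5 weighed on the size of the *Il1b* change. Its *Il1b* level of 0.79 was followed by -2.29 in the next severe kidney. The severe mean was -2.93 with it and -3.67 without it, against -3.00 in moderate kidneys. Without it the severe change was 1.38 (adjusted p = 0.0246), and the moderate change, at 2.05, then passed with an adjusted p of 0.0082. Within the slides the severe change of *Il1b* was 0.26, 3.54 and 2.06, the first resting on 1 severe kidney.

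*Il1a*, the agonist that is active without cleavage and is held inside cells, was not above background in any of the 24 kidneys, and no change is given for it. At this signal a difference between the groups was not detectable.

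*Il1f6* encodes IL-36α, an agonist of epithelial cells. Its probe was above background in 1 control kidney (-5.79), in none of 7 mild kidneys, in 3 of 5 moderate and in 4 of 6 severe kidneys. The moderate kidneys were split: 3 of them stood at 1.85, -1.79 and 0.02, and the other two, at -7.58 and -7.81, were not above background. Severe kidneys ranged from -8.08 to 0.69 with a median of -4.12. The moderate group was at least 6.16-fold higher than the mild group (adjusted p = 0.554), and the severe group was at least 2.32-fold higher (adjusted p = 0.437). These bounds set each mild array at the lowest signal that counted as above background on it. Against controls, of which 5 of 6 were not above background so that only floor readings stand for them, the measured log2 difference was 4.70 in moderate kidneys (SE 1.54, adjusted p = 0.114) and 3.29 in severe kidneys (SE 1.47, adjusted p = 0.126). Neither passed. The moderate change passed only in fits that left out moderate replicate 2 or 5, both without signal (adjusted p = 0.0334 and 0.0332), and with array quality weights (adjusted p = 0.00268).

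*Il18*, which is expressed by the renal epithelium and matured by caspase-1, moved the other way. Its control levels were close together, from -1.24 to -0.87 with a median of -1.06. All 7 mild kidneys were lower, from -2.32 to -1.64 with a median of -1.89, so the groups did not overlap. In the moderate group the kidneys stood at -1.78, -0.92, -2.22, -1.50 and -1.42, and severe kidneys ran from -2.88 to -0.86, both overlapping the controls. The log2 change fell by 0.83 in mild kidneys (SE 0.25, adjusted p = 0.0483). It was -0.50 in moderate kidneys (SE 0.27, adjusted p = 0.324), -0.47 in severe kidneys (SE 0.26, adjusted p = 0.22) and -0.62 over all *mgb-/-* kidneys (SE 0.21, adjusted p = 0.0555). Mild and severe kidneys differed by 0.37 (severe minus mild, SE 0.25, adjusted p = 0.604), so a smaller fall in severe kidneys was not established. The lowest severe kidney, at -2.88, was replicate 4, the array with the smallest share of probes above background. Without it the severe change was -0.20 and severe minus mild was 0.64, and neither passed. The mild call sat at the threshold: it was lost in 18 of 24 fits without 1 kidney (adjusted p from 0.00914 to 0.107) and in 7 of 13 other settings, and with slide as a block the change was -0.84 with an adjusted p of 0.0504. Within the slides the mild change was -0.85, -0.69 and -0.95.

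*Il33*, a nuclear cytokine released when epithelial, endothelial or stromal cells are damaged, was above background in all 24 kidneys. Controls ran from -1.14 to 0.50 with a median of -0.69, and *mgb-/-* kidneys from -0.78 to 1.71 with a median of -0.01. The groups overlapped widely, since 1 control kidney was at 0.50. The log2 change over all *mgb-/-* kidneys was 0.60 (SE 0.26, adjusted p = 0.133). It lay over the control mean in 16 of 18 kidneys, and the changes of the grades lay between 0.55 and 0.66. Without severe replicate 5 the severe change of *Il33* was 0.34, and without moderate replicate 4 the moderate change was 0.35.

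*Il1r1* encodes the signalling receptor for IL-1α and IL-1β. It was above background in all 24 kidneys, with controls from -1.88 to -1.46 (median -1.66) and mild kidneys from -1.46 to -1.0045 (median -1.21). In the moderate group 3 kidneys were at -0.46, -0.60 and -0.56, 1 was at -1.38 and 1, at -2.13, lay below every control. Severe kidneys ran from -1.16 to 0.27 with a median of -0.59, and all 6 lay above every control. The change was 0.69 over all *mgb-/-* kidneys (SE 0.22, adjusted p = 0.0394, 17 of 18 above the control mean) and 1.05 in severe kidneys (SE 0.24, adjusted p = 0.00941). It was 0.43 in mild kidneys (SE 0.24, adjusted p = 0.313) and 0.64 in moderate kidneys (SE 0.26, adjusted p = 0.188). The severe call held in each of 24 fits without 1 kidney (adjusted p from 0.00214 to 0.0253) and within the slides the severe change was 1.05, 1.27 and 0.95. The call over all *mgb-/-* kidneys was lost in 12 of those 24 fits (adjusted p from 0.0107 to 0.0943) and in 6 of 13 other settings, although the change within each slide was 0.63, 0.61 and 0.84 and its adjusted p with slide as a block was 0.0485.

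*Il1r2* encodes the decoy receptor, which binds IL-1 but cannot signal. No control kidney was above background for it, against 4 of 7 mild, 3 of 5 moderate and 6 of 6 severe kidneys. Severe kidneys ran from -4.45 to -0.09 with a median of -3.62. The moderate kidneys stood at -3.31, -5.08 and -3.05, with the other two, at -5.92 and -7.48, not above background, and the highest mild kidney was at -4.07. With controls raised to the lowest signal above background on each array, *Il1r2* was at least 6.85-fold higher in severe kidneys (adjusted p = 0.00277) and at least 2.71-fold higher over all *mgb-/-* kidneys (adjusted p = 0.0217). The bound was 1.63-fold in mild kidneys (adjusted p = 0.146) and 1.82-fold in moderate kidneys (adjusted p = 0.188), and *Il1r2* passed in neither. These p-values are of the measured values, with floor readings standing for the controls, and not of the bounds. On measured values the severe change was 3.80 (SE 0.72), and within the slides it was 4.51, 5.10 and 2.63. Without severe replicate 5 it was 3.21 (adjusted p = 0.00614). Severe exceeded mild kidneys by 2.07 (SE 0.70, adjusted p = 0.25), and the 2 grades overlapped. The severe call held in all 24 fits without 1 kidney. The call over all *mgb-/-* kidneys was lost without control replicate 1 (adjusted p = 0.0516) and under normexp background correction, which brought the change down to 0.74 (adjusted p = 0.0986), in the authors' table, at 0.84 (adjusted p = 0.144), and with the replicate number as a block (adjusted p = 0.0538).

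*Il1rn* encodes the secreted antagonist that occupies *Il1r1* without signalling. It was above background in 3 kidneys, mild replicate 7 at -4.51, moderate replicate 1 at -5.01 and severe replicate 5 at -2.69, and in no control. It therefore did not enter the test, and a difference was not detectable at this signal in the other kidneys.

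*Il1rl1* encodes ST2, the receptor of IL-33, which is also made in a soluble form. The brightest of its 3 probes, which carries the accession NM_001025602, was above background in all 24 kidneys and gave controls from -4.99 to -2.31 and *mgb-/-* kidneys from -4.34 to -1.61. The change was 0.26 (SE 0.33, adjusted p = 0.658), less than its SE. A second probe, for NM_010743, was above background only in severe replicate 5, at -0.90, and the other probe for NM_001025602 in no kidney.

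Among the grades themselves no member passed. In severe against mild kidneys 0.586% of all genes passed, and *Il1b*, *Il1f6*, *Il1r1* and *Il1r2* had an unadjusted p under 0.05. In severe against moderate kidneys 0.00715% of all genes passed and 1 member had an unadjusted p under 0.05. In moderate against mild kidneys 0% passed and *Il1f6* alone of the members had an unadjusted p under 0.05 in limma. A difference between grades was thus not shown for any member, and with 5 to 7 kidneys per grade the number of arrays limits the precision.

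Severe replicate 5 had the highest level of 6 of the 9 genes among all 24 kidneys: *Il1b* (0.79), *Il1rn* (-2.69), *Il1r1* (0.27), *Il1r2* (-0.09), *Il33* (1.71) and *Il1rl1* (-1.61). In the same kidney *S100a8* and *S100a9*, calprotectin subunits of neutrophils and monocytes, were at 3.71 and 5.54, where the other severe kidneys did not exceed -2.10 and 0.02. The neutrophil chemokine receptor *Cxcr2* was at -0.60 there and at most -4.12 in any other kidney. Not every neutrophil marker was high there: *Ngp* was above background in none of the 6 severe kidneys. High values in the severe group were not confined to neutrophil markers. Among macrophage and monocyte markers, the highest severe levels of *Ccr2*, *Cx3cr1* and *Lyz2* were 0.42, 2.43 and 1.71, with severe medians of -3.26, -0.57 and -2.26. Those of *Csf1r* and *Ly6c1* were 4.99 and 7.43, near their medians of 4.75 and 7.31. The summed level of the 9 neutrophil markers, most of it from *Csf3r*, was 129 in severe replicate 5 and 143 in severe replicate 1. In severe replicate 5 the injury marker *Havcr1* reached 4.16, its highest level in the series. The summed level of the 13 tubule and podocyte markers, on the linear scale, was 461 there against at least 741 in every other kidney. The part of these cells in the levels of the interleukin-1 genes was not tested, and in whole-kidney RNA fewer cells of a type and less RNA per cell cannot be told apart.

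*Il1f6* followed the tubular injury markers across kidneys. Of 16283 named genes in the fit, the 3 whose levels were most like it over 24 kidneys were *Havcr1* (Pearson r = 0.953, Spearman rho = 0.803), *Lcn2* (r = 0.953, rho = 0.724) and *Edn1* (r = 0.947, rho = 0.794). *Havcr1* encodes KIM-1, a protein of injured proximal tubules, *Lcn2* encodes NGAL, which is released by injured tubules and neutrophils, and *Edn1* encodes the vasoconstrictor endothelin-1. The 3 moderate kidneys with *Il1f6* above background had *Lcn2* at 6.59, 4.29 and 5.30, and the other two had it at -1.05 and -1.16, inside the control range of -1.34 to -0.35. *Havcr1* in these 5 kidneys was at 1.81 (replicate 1), -3.08 (replicate 2), -0.05 (replicate 3), 1.93 (replicate 4) and -2.60 (replicate 5), so the same 3 kidneys were high. The likeness rests on the kidneys with *Il1f6* above background, since the rest are at the floor of its probe, and it was 0.974 with *Havcr1* without severe replicate 5. The study on these kidneys split them by *Lcn2* level and named *Il1f6* and *Havcr1* among the genes that differed. The likeness of *Il1f6* to *Lcn2* and *Havcr1*, and the shared split of the moderate kidneys, are therefore a description and not separate evidence.

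**Figure D3:**
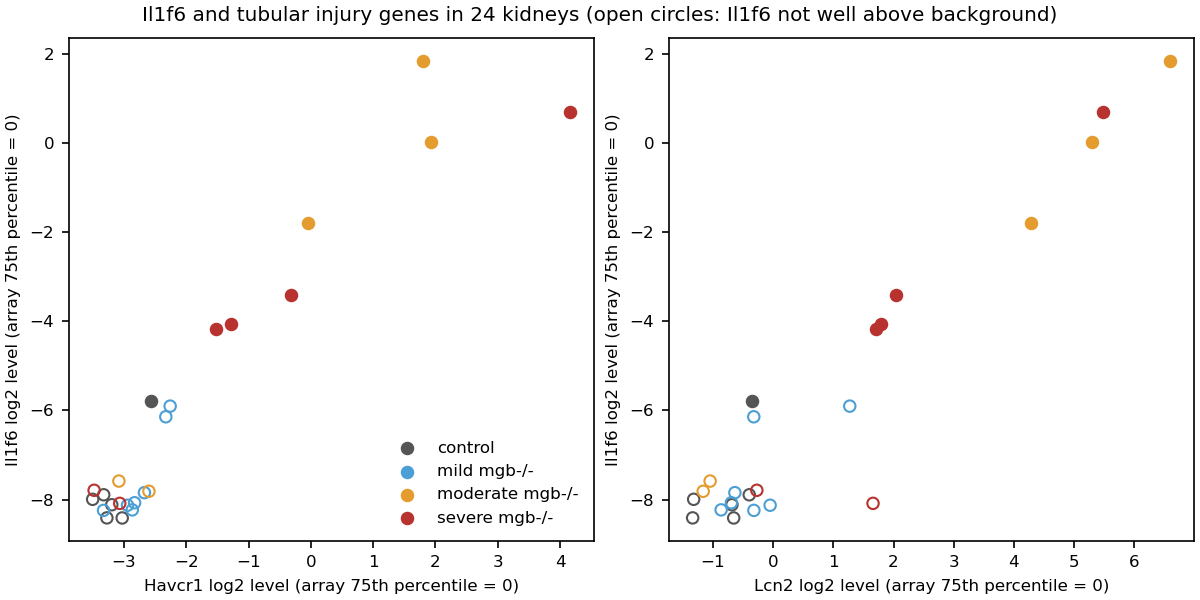
Level of *Il1f6* in each of 24 kidneys against *Havcr1* (left) and *Lcn2* (right), both axes as log2 intensity with the array's 75th percentile at 0. Open circles are kidneys in which *Il1f6* was not well above background. The 3 moderate and 4 severe kidneys with *Il1f6* signal are also those with the highest *Havcr1*, and the other 2 moderate kidneys lie with the controls.

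The injury markers themselves did not pass. *Lcn2* was 2.17 higher in *mgb-/-* kidneys (SE 0.99, adjusted p = 0.147) and *Havcr1* 1.66 higher (SE 0.87, adjusted p = 0.208), with the same split inside the moderate group. In severe kidneys *Lcn2* was 2.86 higher (SE 1.07, adjusted p = 0.0692) and lay above every control in all 6.

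The other members had different nearest genes. *Il1b* was most like *Rgs1* (r = 0.932), a regulator of G-protein signalling in leukocytes, *Has1* (0.874), a hyaluronan synthase, and the chemokine *Ccl6* (0.864), the last of which fell to 0.704 without severe replicate 5. *Il1r1* was most like *Osmr* (r = 0.963), the oncostatin M receptor, *Irak3* (0.948), an inhibitory kinase of the same pathway, and *Fblim1* (0.946). *Il1r2* was most like *Eya2* (0.933), *Pdlim1* (0.929) and *Wdr92* (0.927). *Il18* was most like *Shtn1* (0.862) and *Apaf1* (0.850), the scaffold of the apoptosome. *Il33* was most like *Thbd* (0.934), the endothelial thrombomodulin, *Mthfd2l* (0.903) and *Smad1* (0.891). For *Il1rl1* the likeness was lower and leaned on 1 kidney: *Creb3l4* was first at 0.780, and at 0.665 without severe replicate 5. All of these are correlations over 24 kidneys that share their arrays and their scaling.

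RefSeq promoter windows of 300 bases, from 250 before to 50 after the start (build GRCm38.p6), were given for 8 of the 9 genes, *Il1f6* having none here. They are shown for the 3 genes that rose and for *Il18*, which fell, because these 4 carry the calls above. Capitals mark a match to the κB motif, written as GGG, then any 5 bases, then CC, on either strand. This motif occurs in 50.8% of all 32851 windows, and the AP-1 motif TGANTCA, also searched on both strands, in 7.81%. Neither was found in the windows of *Il1b*, *Il1r2* and *Il18*, and 1 κB match lies in the second of the 2 windows of *Il1r1*, on the minus strand, 232 bases before the start.
*Il1b*, chr2:129371090-129371389, minus strand: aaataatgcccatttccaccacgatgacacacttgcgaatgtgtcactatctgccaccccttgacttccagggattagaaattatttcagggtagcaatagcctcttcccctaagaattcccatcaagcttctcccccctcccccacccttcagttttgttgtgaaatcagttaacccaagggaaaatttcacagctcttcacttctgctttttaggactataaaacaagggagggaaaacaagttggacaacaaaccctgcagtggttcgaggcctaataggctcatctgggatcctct
*Il1r1*, chr1:40266336-40266635, plus strand: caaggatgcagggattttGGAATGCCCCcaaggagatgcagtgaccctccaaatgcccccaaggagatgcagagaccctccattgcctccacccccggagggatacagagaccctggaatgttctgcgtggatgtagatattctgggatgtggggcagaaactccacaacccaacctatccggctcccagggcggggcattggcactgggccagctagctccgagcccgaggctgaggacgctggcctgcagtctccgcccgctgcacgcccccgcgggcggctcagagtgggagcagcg
*Il1r2*, chr1:40085843-40086142, plus strand: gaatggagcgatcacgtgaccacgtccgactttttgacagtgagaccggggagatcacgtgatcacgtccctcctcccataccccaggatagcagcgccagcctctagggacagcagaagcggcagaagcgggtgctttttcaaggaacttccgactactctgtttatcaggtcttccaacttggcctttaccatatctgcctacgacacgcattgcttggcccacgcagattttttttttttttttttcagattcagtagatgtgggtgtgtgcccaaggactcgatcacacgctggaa
*Il18*, chr9:50554450-50554749, plus strand: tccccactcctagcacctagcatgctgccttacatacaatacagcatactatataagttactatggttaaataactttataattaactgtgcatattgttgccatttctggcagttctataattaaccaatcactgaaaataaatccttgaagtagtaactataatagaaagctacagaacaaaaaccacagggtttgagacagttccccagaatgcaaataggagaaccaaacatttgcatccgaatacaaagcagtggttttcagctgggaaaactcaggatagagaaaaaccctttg
Over all 13 windows a κB match was found in 4, which belong to *Il1r1* and *Il1rn*, and an AP-1 match in 2, 1 each of *Il1a* and *Il1rn*. Both motifs occurred together in the first of 3 windows of *Il1rn*. A match is a run of letters and not a measured binding site.

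Of 12 other interleukin-1 family ligands and receptors 6 were tested. *Il1rap*, the accessory chain that *Il1r1* needs to signal, was the 1 that passed over all *mgb-/-* kidneys (13.3% of all genes passed), where it was lower by a log2 change of -0.37 (adjusted p = 0.0368). In severe kidneys, where 16.1% of all genes passed, 2 of the 6 did: *Il18r1*, the IL-18 receptor chain, rose by 1.53 (SE 0.49, adjusted p = 0.0365), and *Il18bp*, the secreted inhibitor of IL-18, by 0.41 (adjusted p = 0.025). The median change of the 6 over all *mgb-/-* kidneys was 0.04.

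Of 12 inflammasome and processing genes 0 rose and 1 fell over all *mgb-/-* kidneys in limma, with 5 higher at an unadjusted p under 0.05 and 13.3% of all genes passing. *Nlrc4*, the sensor of bacterial flagellin, fell by 1.76 (SE 0.39, adjusted p = 0.00631). *Casp1*, which cleaves pro-IL-1β and pro-IL-18, changed by 0.11 (SE 0.25, adjusted p = 0.818), and *Nlrp3* by 0.55 (SE 0.26, adjusted p = 0.158). In severe kidneys 3 of the 12 rose and 1 fell, against 16.1% of all genes passing. Those that rose were *Casp4*, the non-canonical inflammatory caspase, by 1.08 (adjusted p = 0.0363), *Gsdmd*, the pore former through which IL-1β leaves the cell, by 0.81 (adjusted p = 0.0226), and the protease *Capn1* by 0.78 (adjusted p = 0.0152). *Nlrc4* was lower in severe kidneys as well, by a log2 change of -1.85 (adjusted p = 0.0139).

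Of 16 signalling genes below the receptor, 1 rose and 3 fell over all *mgb-/-* kidneys, where 13.3% of all genes passed. *Irak3*, which restrains the pathway, rose by 0.95 (adjusted p = 0.0163). *Irak1*, the kinase that carries the signal, fell by 0.44 (adjusted p = 0.00319), *Ikbkg*, the regulatory subunit of the IκB kinase, by 0.38 (adjusted p = 0.00866) and *Chuk*, one of its catalytic subunits, by 0.68 (adjusted p = 0.0165). The median change of the 16 was 0.03.

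Several genes known to be induced by IL-1 rose. Of 18 such genes 15 were tested, of which 7 rose and 0 fell over all *mgb-/-* kidneys (11 and 0 at an unadjusted p under 0.05). Of all genes, 13.3% passed in that comparison. *Mmp3* and *Saa3* are among the 7 that rose (*Saa3* adjusted p = 0.041). They and *Il6* were above background in no control kidney, so they entered the test only through *mgb-/-* kidneys in which they were high. The count has to be read with that. The median of the 15 changes was 1.35, or 1.07 with the genes without control signal set at their lower bounds. *Ptgs2*, which encodes cyclooxygenase-2, rose by 3.19 (adjusted p = 0.000142), *Cxcl1*, a neutrophil chemokine, by 3.31 (adjusted p = 0.00203), and *Nfkbia*, the NF-κB inhibitor IκBα, by 1.35 (adjusted p = 0.00186). *Birc3* rose by 1.05 (adjusted p = 0.00741) and *Nfkbiz* by 0.95 (adjusted p = 0.034). In mild kidneys, where 6.02% of all genes passed, *Ptgs2* was 3.12 higher (adjusted p = 0.0019) and *Cxcl1* 2.77 higher (adjusted p = 0.0248). *Il1b* did not pass there, with a change of 0.86 and 7 of 7 mild kidneys above the control mean. An order of these changes was not tested. *Mmp3*, a matrix protease, was above background in 0 of 6 control and 14 of 18 *mgb-/-* kidneys and was at least 4.68-fold higher (adjusted p = 0.0136). *Il6*, a further target, was above background in 0 of 6 control and 6 of 18 *mgb-/-* kidneys and did not pass (adjusted p = 0.226). Tumour necrosis factor and other stimuli also induce these genes. The study on these kidneys singled out *Ptgs2* and *Nfkbia*. From its own list of changed genes it also predicted IL-1β, among others, as an activated upstream regulator. The direction of this list is therefore not independent evidence.

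**Figure D4:**
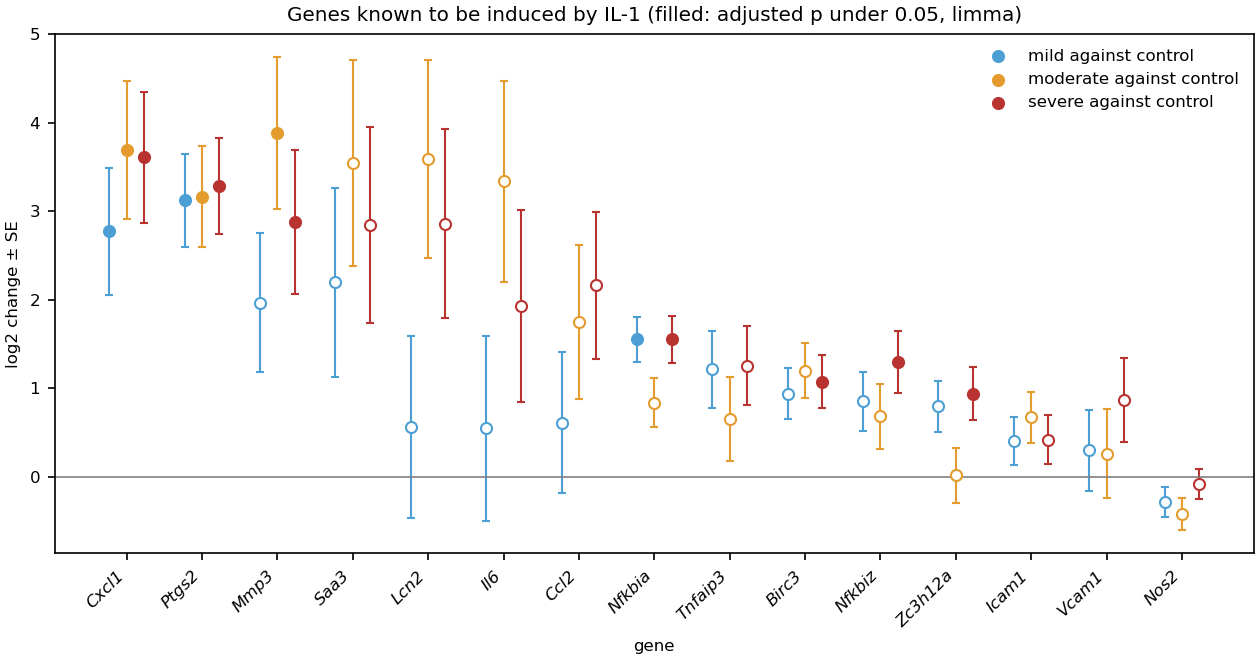
Log2 change with SE (limma) of the 15 tested genes known to be induced by IL-1, in each grade against the 6 controls, ordered by the change over all *mgb-/-* kidneys. Filled circles have an adjusted p under 0.05. *Ptgs2* and *Cxcl1* passed in all 3 grades. *Mmp3*, *Saa3* and *Il6* were not above background in any control kidney, so their plotted changes are measured differences from the floor of the probe.

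Markers of cells that could carry interleukin-1 transcripts moved unequally. Beside the counts below, 13.3% of all genes passed over all *mgb-/-* kidneys and 16.1% in severe kidneys. Of 9 macrophage and monocyte markers tested 0 rose over all *mgb-/-* kidneys in limma (1 at an unadjusted p under 0.05) and *Ly6c1* fell by 0.38 (adjusted p = 0.00478). *Ly6c1* made up 79.5% of their summed level. The sum of the others was 32.1 to 46.9 in control kidneys and up to 74.2 in severe kidneys, whose median of 38.1 lay inside the control range. The lowest severe sum, 4.85 in severe replicate 4, lacks a value for *Csf1r* and is not a level of the whole list. Of 8 neutrophil markers tested none passed over all *mgb-/-* kidneys, with 3 higher at an unadjusted p under 0.05, and in severe kidneys *Elane* fell by 0.84 (adjusted p = 0.0471). *Mpo* and *Retnlg* passed there as well, but neither was above background in a control kidney. *Mpo* was at least 1.33-fold higher (2 of 6 severe kidneys above background, adjusted p = 0.0226) and *Retnlg* at least 2.99-fold higher (3 of 6, adjusted p = 0.0487), with severe replicate 5 at 1.20 and the severe median at -5.27. *Csf3r* made up 95.4% of the summed neutrophil level. The sum of the others was 1.12 to 2.42 in control and 1.04 to 63.3 in severe kidneys, the highest being severe replicate 5. None of 10 lymphocyte markers, 5 mast cell and innate lymphoid markers or 6 endothelial markers tested passed over all *mgb-/-* kidneys in limma (1, 2 and 2 of them at an unadjusted p under 0.05), while in severe kidneys *Gata3* rose by 1.04 (adjusted p = 0.00805) and *Kdr* fell by 0.39 (adjusted p = 0.0235). Of 8 fibroblast and stromal markers *Acta2* rose by 1.20 (adjusted p = 0.0224) and *Dcn* by 0.66 (adjusted p = 0.043), and of 13 tubule and podocyte markers *Aqp2*, the water channel of the collecting duct, rose by 0.91 (adjusted p = 0.0194). Of 12 urothelial and squamous markers 5 rose over all *mgb-/-* kidneys, namely *Krt20*, *Krt19*, *Grhl3*, *Krt14* and *Upk1b*, and 11 in severe kidneys, with a summed level of 16.3 to 30.02 in controls and 87.9 to 284 in severe kidneys, so that these groups did not overlap. *Krt14*, a keratin of basal cells, was 3.53 higher in severe kidneys (adjusted p = 0.000175) and *Upk2*, a uroplakin, 3.68 higher (adjusted p = 0.000174). The group means of *Il1r1* and *Il1r2* were highest in severe kidneys, though neither gene passed between grades. The *Il1r1* median was -0.60 in moderate and -0.59 in severe kidneys. Median summed levels of the urothelial and of the mast cell and innate lymphoid markers were also highest in severe kidneys. *Gata3* made up 76.9% of the mast cell and innate lymphoid sum. Without it the median was 2.70 in severe and 1.57 in control kidneys, with overlapping ranges. *Cma1*, *Cpa3* and *Fcer1a* of that list were above background in 0 of 6 severe kidneys. The part of any cell type in the levels of *Il1r1* and *Il1r2* was not tested.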

How the data were processed

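RNA of each of 24 kidneys was read on a single-colour Agilent 8x60K array, on 3 slides of 8 with 2 control and 6 *mgb-/-* kidneys each. The authors deposited the scanner intensities of every spot (Agilent Feature Extraction 10.10, per the submitters' processing notes), background-subtracted in the processed signal and not normalized between arrays, and a table of intensities normalized by a method not given in the sources used here. Processed intensities were converted to log2, the array's 75th percentile was subtracted, outlier spots were left out and the spots of a probe were averaged. No spot was saturated. Genes were named through the accessions of the RefSeq table (GRCm38.p6), for 26762 of 55681 probes. A probe was kept if 5 or more arrays had it well above background, and the brightest kept probe stood for its gene (27971 genes). *mgb-/-* and control kidneys were compared in a 2-group and the grades in a 4-group model (limma 3.58.1, R 4.3.3). The fit was tested on simulated data. The number of arrays limits the precision.

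The members and the gene lists were chosen with earlier results of these data known. The lists, written by hand, cover other family genes, inflammasome, signalling, IL-1-induced genes and markers of macrophages, neutrophils, lymphocytes, mast cells, urothelium, tubule, endothelium and fibroblasts. Besides the members, *Lcn2* and *Havcr1*, the text names up to 6 passing genes per list by adjusted p and the 3 genes most like each tested member (1 of these is not reported here), and a few list members chosen after their values were seen. Alternatives were quantile, median and normexp (offset 50) processing, the authors' table, no dim-probe filter or one requiring all 24 arrays, averaging the probes of a gene, slide and replicate blocks, array weights, a 2-fold minimum, an adjusted p under 0.1, the compared groups alone, values within slides, and the omission of each kidney. The files hold no mean signal, so normexp used the median signal and background. The replicate numbers were not taken as pairs: over 33 same-numbered pairs of kidneys the correlation of deviations from group means ran from -0.55 to 0.65.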

Additional observations from a re-analysis of the deposited data

Results flagged for a closer look

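In 36 groups of kidneys, 4 for each of the 9 genes, the highest or lowest kidney was set against the others of its group, and 4 stood apart. Chance alone gives about 1 in 20 such groups. The 9 genes were read in the same kidneys, so the groups are not independent, and an excess over chance was not tested. *Il33* in severe replicate 5 was at 1.71, far above the other severe kidneys. *Il1rl1* in mild replicate 2 was at -3.13, and *Il1f6* in control replicate 6, the 1 control kidney above background, was at -5.79. *Il1a* in mild replicate 4 was at -5.89, on a probe that was not above background there. A further signal lay outside the main measurement: the second *Il1rl1* probe (NM_010743) was above background in severe replicate 5, at -0.90, and in no other kidney, controls included.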

How the results depend on the processing

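The direction of each passing change was the same in every alternative run. In severe against control kidneys the number of passing members stayed at 2 to 3 in all alternatives and all fits without 1 kidney, and *Il1r1* and *Il1r2* passed in each of them, except that *Il1r2* has no value under a filter on all 24 arrays. The other counts moved. Over all *mgb-/-* kidneys, 3 passing members became 1 with quantile normalization, with median scaling and with no filter on dim probes, 0 with the authors' table, and 5 with array quality weights. Without 1 kidney this count ran from 0 (without control replicate 1) to 4, and it was 1 without any other single control kidney, mild replicate 2, moderate replicate 1, 3 or 4, or severe replicate 1. In mild against control kidneys the 1 passing member became 0 with quantile normalization, median scaling, the authors' table, no filter, slide as a block or a 2-fold minimum, 4 with array weights and 3 in a fit of the compared groups alone, and ran from 0 to 1 without 1 kidney, staying at 1 without mild replicate 4, moderate replicate 2 or 3, or severe replicate 4, 5 or 6. In moderate against control kidneys 0 became 6 with array weights and 1 at an adjusted p under 0.1 or in the compared groups alone, and ran from 0 to 2 (without moderate replicate 5; 1 without moderate replicate 2 or severe replicate 5). In moderate against mild kidneys 0 became 2 with array weights. The cause was not tested.

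The replicate numbers did not pair the kidneys (median correlation 0.0046 over the 33 same-numbered pairs). With the replicate block 0 members passed over all *mgb-/-* kidneys and 0 in mild kidneys.

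Reversals were of changes near 0 that had not passed. *Il1rl1* in mild kidneys was -0.0689 with quantile normalization, -0.103 with median scaling and -0.0444 with the authors' table, and ran from -0.16 to 0.37 without 1 kidney. *Il1rl1* in moderate kidneys ran from -0.0239 to 0.512 without 1 kidney. *Il1f6* in mild kidneys was -0.16 with array weights and ran from -0.0075 to 0.656. *Il33* in severe against mild kidneys was -0.17 with array weights and ran from -0.24 (without severe replicate 5) to 0.19. Signal over background limits *Il1a*, *Il1rn*, *Il1f6* and *Il1r2*, and the levels of kidneys not above background have no order.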
